A study of Mus musculus with 48 samples.

Results

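Atglistatin in the diet was compared with control diet in the gastrocnemius, a mixed-fibre calf muscle, of male C57BL6J mice that all drank corticosterone. The comparison took every library of 2 of the study's 4 groups, 28 of 48 libraries in all. Cort_ATGLi (n = 14) received 100 ug/ml corticosterone in the drinking water for 2 weeks and 571 mg/kg atglistatin in the food, and Cort_CON (n = 14) received the same corticosterone and the food without atglistatin. The groups without corticosterone, used here as a comparison, were EtOH_ATGLi (n = 10, 1% ethanol water and atglistatin) and EtOH_CON (n = 10, 1% ethanol water and control diet). Whether the corticosterone water also held ethanol, and how much drug each mouse ate, is not given in the labels. The inhibitor reached the whole animal through the diet, so muscle was not its only possible site. Libraries are named by group and the number in their title, such as Cort_CON p32. Since glucose and insulin differ from library to library, each library was counted as 1 mouse, and p-values measure the spread between these libraries.

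Atglistatin blocks ATGL, adipose triglyceride lipase, the product of Pnpla2. This lipase cuts the first fatty acid from stored triglyceride and so sets how fast fat cells release fatty acids. Corticosterone is the main glucocorticoid of mice. Glucocorticoids raise fat breakdown, blood glucose and insulin, and in muscle they change the handling of fuel and protein. Insulin in turn drives glycogen storage and the genes of fatty acid synthesis.

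The 2 diets differed in the mice before any gene was considered. All 14 Cort_ATGLi mice were labelled nondiabetic, against 5 nondiabetic and 9 diabetic Cort_CON mice. Fed glucose, in the unit of the labels, ran from 95.0 through a median of 115 to 138 in Cort_ATGLi, against 131, 265 and 407 in Cort_CON. Only Cort_CON p33 and p49 lay within the range of Cort_ATGLi. The mean was 115 ± 14.8 in Cort_ATGLi and 244 ± 79.9 in Cort_CON (SD, n = 14 each), a difference of -129 (two-sided permutation test, p = 2e-05, the smallest that 100000 resamples can give; adjusted p = 4e-05 over the 2 measures). Insulin ran from 2.19 through 13.8 to 36.0 in Cort_ATGLi, against 9.31, 37.8 and 39.8 in Cort_CON, and the groups overlapped more. Its mean was 17.8 ± 11.7 in Cort_ATGLi and 31.7 ± 10.6 in Cort_CON, a difference of -13.9 (permutation test, p = 0.0039, adjusted p = 0.0039). Against the 5 nondiabetic Cort_CON mice alone, the glucose difference was -43.7 (exact permutation test, p = 0.0012) and the insulin difference -7.95 (exact permutation test, p = 0.22). RNA differences between the diets therefore come with differences in glucose and insulin, and their part in the RNA differences was not tested beyond the fit with insulin as a covariate.

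**Figure D1:**
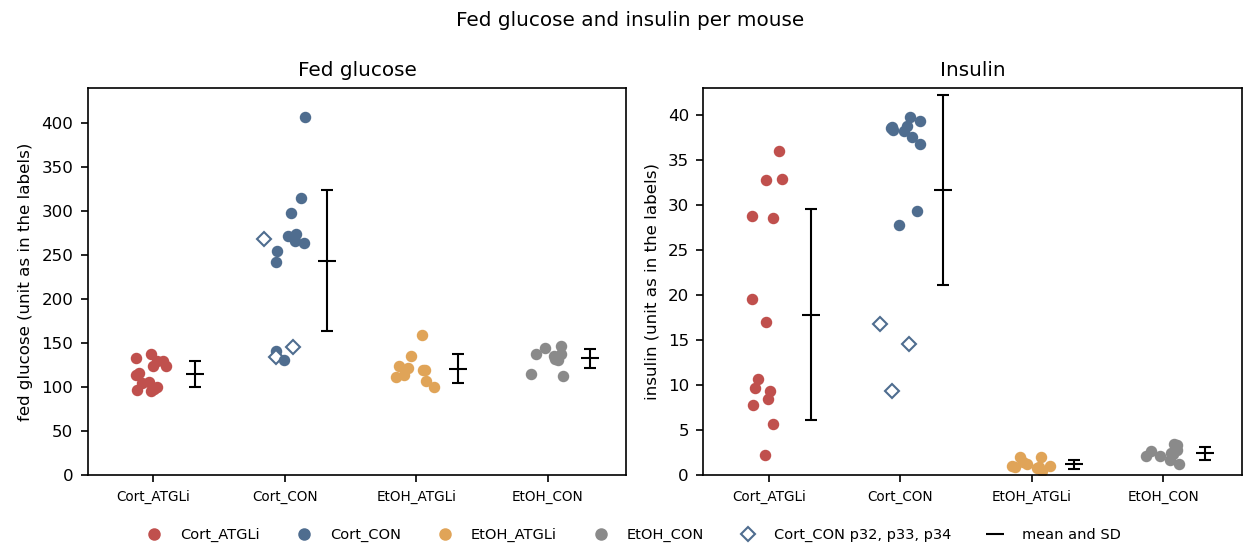
Fed glucose (left) and insulin (right) of each mouse, in the units of the labels, in Cort_ATGLi, Cort_CON, EtOH_ATGLi and EtOH_CON. Points are mice, open diamonds are Cort_CON p32, p33 and p34, and black marks are the mean and SD. Glucose of all Cort_ATGLi mice sits at 138 or lower, while 12 of the Cort_CON mice lie above that value.

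Libraries held 11283326 to 18743702 counts in Cort_ATGLi and 10585234 to 22921262 in Cort_CON. Levels are given below as CPM, a gene's share of the scaled library. Markers of skeletal muscle fibres (12 genes) summed to 85740 to 142300 CPM in Cort_ATGLi and 115700 to 151500 CPM in Cort_CON, so the genes of the labelled tissue were abundant. In this whole tissue, fewer cells of a type and less RNA per cell cannot be told apart. Libraries Cort_CON p32, p33 and p34 stood apart from the rest of their group in many genes. Cardiac actin Actc1 was at 247, 188 and 150 CPM in these 3, against 7.29 to 33.2 CPM in the other Cort_CON libraries. Carbonic anhydrase Car3 was at 3601, 3981 and 4172 CPM, against 397 to 1835 CPM in the others. Their insulin (14.5, 9.31 and 16.8) was the lowest of Cort_CON. The main results below are therefore also given without them, a choice made after their values were seen. Libraries p41 of Cort_ATGLi and p45 of Cort_CON were also far from their groups in several genes.

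Of 12592 genes tested, 201 (1.6%) passed an adjusted p of 0.05 in edgeR's quasi-likelihood test with Benjamini-Hochberg adjustment, 84 higher (0.667%) and 117 lower (0.929%) in Cort_ATGLi. At an unadjusted p under 0.05 there were 1560 genes. Most changes were small, with a median size of 0.46 on the log2 scale among the 201. Changes of at least 2-fold numbered 2 among genes that rose and 21 among genes that fell. Without Cort_CON p32, p33 and p34, 100 genes passed, 42 higher (0.334%) and 58 lower (0.461%), of which 80 were among the 201. With the Cort libraries fitted alone, so that the vehicle libraries no longer inform the estimate of the spread, 71 genes passed. Scaling by library totals only gave 294 genes, with 226 higher and 68 lower, and moved the median of all genes by 0.08 on the log2 scale, so the split by direction depends on the scaling.

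Genes of fatty acid synthesis were lower on atglistatin. Of 21 measured genes in this list, 6 fell (28.6% of the list, against 0.929% of all genes tested) and 0 rose in edgeR's test. DESeq2 called 6 genes of the list and limma voom 2, and 13 were at an unadjusted p under 0.05. The median log2 fold change of the list was -0.29, against 0.0011 over all genes. The 6 follow the route from mitochondrial citrate to monounsaturated fat. Slc25a1 carries citrate out of mitochondria, Acly splits it to acetyl-CoA, Fasn builds palmitate, Elovl6 lengthens it, Scd1 places the first double bond, and Thrsp (Spot 14) is a nuclear protein that follows lipogenic signals.

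Scd1 had 11.2, 28.8 and 104 CPM (lowest, median and highest) in Cort_ATGLi, against 7.04, 131 and 268 CPM in Cort_CON. Of the Cort_CON libraries, 9 lay above every Cort_ATGLi library, and the lowest of all 28 was Cort_CON p45. The log2 fold change was -1.94 (SE 0.36, adjusted p = 0.0013). Fasn ran from 5.79 through 21.6 to 42.3 CPM in Cort_ATGLi, against 14.2, 51.3 and 93.7 CPM in Cort_CON. Cort_CON was split, with 8 libraries above every Cort_ATGLi library and p32, p33, p34, p35, p45 and p28 inside the range of the atglistatin libraries. Its log2 fold change was -1.19 (SE 0.28, adjusted p = 0.0172). Elovl6, a weakly expressed gene, had 0.00, 0.68 and 1.95 CPM in Cort_ATGLi, against 0.25, 2.56 and 6.91 CPM in Cort_CON (log2 fold change -1.67, SE 0.37, adjusted p = 0.0104). Slc25a1 ran from 1.03 through 2.31 to 4.01 CPM in Cort_ATGLi, against 1.63, 4.56 and 11.3 CPM in Cort_CON (log2 fold change -1.14, adjusted p = 0.0163). For both genes, 8 Cort_CON libraries exceeded the highest Cort_ATGLi library. Thrsp had medians of 19.2 CPM in Cort_ATGLi and 37.01 CPM in Cort_CON (log2 fold change -0.93, adjusted p = 0.0246), and Acly 7.35 and 14.3 CPM (log2 fold change -0.76, adjusted p = 0.0297).

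**Figure D2:**
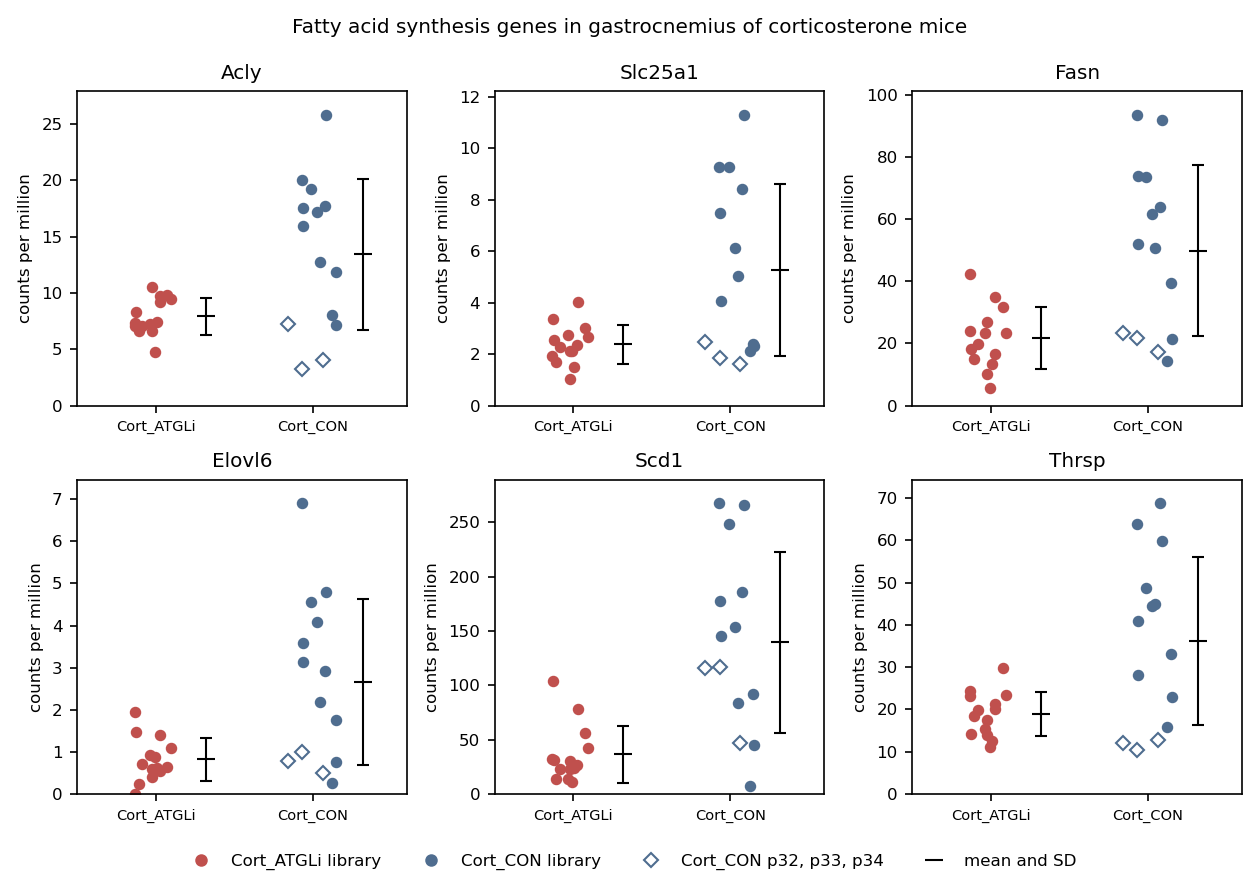
Level in CPM of 6 fatty acid synthesis genes in each library of Cort_ATGLi (left in each panel) and Cort_CON (right). Open diamonds are Cort_CON p32, p33 and p34, and black marks are the mean and SD. Cort_ATGLi libraries lie at lower values with a smaller SD in CPM, and Cort_CON libraries spread upwards. Among Cort_CON, p32, p33 and p34 are among the low ones for all genes but Scd1.

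The spread in CPM was wider in Cort_CON for each of the 6, where the level was also higher, as with Scd1 at 36.4 ± 26.5 CPM in Cort_ATGLi and 140 ± 83.0 CPM in Cort_CON (SD, n = 14 each). Without Cort_CON p32, p33 and p34 the differences were larger: -2.06 for Scd1, -1.92 for Elovl6, -1.40 for Fasn, -1.36 for Slc25a1, -1.17 for Thrsp and -0.99 for Acly, and the same 6 passed. Fitted on the 28 Cort libraries alone, Scd1 (adjusted p = 0.0175) and Slc25a1 (adjusted p = 0.0493) passed, while the adjusted p was 0.0646 for Fasn, 0.0552 for Elovl6, 0.0989 for Thrsp and 0.138 for Acly. With log2 insulin added to that fit, Scd1 was at -1.60 (adjusted p = 0.0971), Fasn at -0.89 (adjusted p = 0.348) and Thrsp at -0.46 (adjusted p = 0.621), and no gene of the list passed. Leaving out Cort_CON p27 ended the call of Thrsp, and leaving out any of Cort_ATGLi p23 and p38 and Cort_CON p29, p36, p49 and p50 that of Acly. Levels in the vehicle mice were nearer to those of Cort_ATGLi: Scd1 averaged 46.9 ± 15.9 CPM in EtOH_ATGLi and 63.4 ± 46.04 CPM in EtOH_CON (SD, n = 10 each).

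Fat cells also express these genes, so the levels of fat-cell markers are given here, and their part in the result was not tested beyond the covariate fit below. The 9 fat-cell markers other than Car3 summed to 202, 371 and 878 CPM (lowest, median and highest) in Cort_ATGLi, against 234, 325 and 505 CPM in Cort_CON. None of the 10 measured markers was called by edgeR, with 3 at an unadjusted p under 0.05, 1 called by DESeq2 and 0 by limma voom. Adipoq, the adiponectin gene, had medians of 24.6 CPM in Cort_ATGLi and 24.3 CPM in Cort_CON (log2 fold change 0.12, adjusted p = 0.92). With the mean of the fat-cell markers as a covariate among the Cort libraries, Scd1 was at -1.93 (adjusted p = 0.0163), Elovl6 at -1.69 (0.0371), Fasn at -1.21 (0.0204) and Slc25a1 at -1.16 (0.0116), while Thrsp (-0.89, adjusted p = 0.0725) and Acly (-0.75, adjusted p = 0.12) did not pass.

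Few genes passed in neighbouring parts of lipid metabolism. Srebf1 and Mlxipl, which encode the lipogenic transcription factors SREBP1 and ChREBP, had log2 fold changes of -0.46 (adjusted p = 0.18) and -0.01 (adjusted p = 0.98). Acaca, the acetyl-CoA carboxylase that precedes Fasn, was at -0.34 (adjusted p = 0.36). Without Cort_CON p32, p33 and p34 it was at -0.46 (adjusted p = 0.19). With Cort_ATGLi p41 left out as well, Acaca passed at -0.61 (adjusted p = 0.0133). In the lipid droplet and lipolysis list (27 measured), Agpat2, which acylates lysophosphatidic acid on the way to triglyceride, was the single gene that fell (3.7% of the list, against 0.929% of all genes tested; -0.68, adjusted p = 0.0129; -0.75 without p32, p33 and p34). Agpat2 overlaps Egfl7 on the other strand. Pnpla2 itself had medians of 303 CPM in Cort_ATGLi and 265 CPM in Cort_CON, with a log2 difference of 0.04 (SE 0.14, adjusted p = 0.96), which says nothing of the activity of the enzyme. Its RNA was high in p41 of Cort_ATGLi (666 CPM) and p45 of Cort_CON (697 CPM). The droplet coat gene Plin2 (-0.12, adjusted p = 0.79), the PPAR targets Pdk4 (-0.46, adjusted p = 0.64) and Angptl4 (-0.63, adjusted p = 0.41), and the muscle glucose transporter Slc2a4 (-0.17, adjusted p = 0.20) did not pass. For Plin2, 9 Cort_ATGLi libraries lay below every Cort_CON library, while p41 of Cort_ATGLi was above them all at 26.9 CPM. Without p32, p33, p34 and p41, Plin2 was at -0.30 (adjusted p = 0.17). No gene of the 26 measured PPAR targets was called by edgeR, with 6 at an unadjusted p under 0.05, 1 called by DESeq2 and 0 by limma voom. Among 35 fatty acid oxidation genes, none was called by edgeR, DESeq2 or limma voom, with 5 at an unadjusted p under 0.05. Cholesterol synthesis and uptake (21 measured, 17 with a negative log2 fold change) had no call by edgeR or DESeq2, 6 genes at an unadjusted p under 0.05 and 1 call by limma voom, and Cyp51 passed without p32, p33 and p34 (-0.68, adjusted p = 0.0040).

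Clock genes also changed, in both directions. The circadian clock turns on the CLOCK and BMAL1 activators, which drive Per genes and Dbp, while the REV-ERB receptors and NFIL3 repress parts of the output. DBP and NFIL3 compete for the same DNA sequence, the D-box. Of 20 measured clock genes, 3 rose and 2 fell (25% of the list, against 1.6% of all genes tested). DESeq2 called 6 and limma voom 4.

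The promoters of Per3 and Fasn are shown because their genes are the largest clock change and a central lipogenic fall. Each runs 5′ to 3′ over the 250 bases before the gene start, from RefSeq on GRCm38.p6, in lower case with the matches, on either strand, of 1 motif in capitals: the D-box in Per3 and CCAAT in Fasn. Per3, at chr4:151044666-151044915 on the minus strand, holds 2 D-box matches (TTANGTAA), 205 and 158 bases before the start, and 2.06% of 32851 promoters hold at least 1. Fasn, at chr11:120824548-120824797 on the minus strand, holds 3 CCAAT matches, 2 of them overlapping, a motif found in 33.8% of promoters. Per3 also holds 3 CCAAT matches, left in lower case. A match to the letters is a description of the sequence. The 11 genes with an entry among the 12 looked up, the 6 lipogenic genes, Agpat2 and the 5 called clock genes, had no match to the sterol regulatory element TCACNCCAC (1.05% of promoters hold it) in this window. Only Per3 held a D-box, and only Slc25a1 an E-box CACGTG (6.02% of promoters).
Per3: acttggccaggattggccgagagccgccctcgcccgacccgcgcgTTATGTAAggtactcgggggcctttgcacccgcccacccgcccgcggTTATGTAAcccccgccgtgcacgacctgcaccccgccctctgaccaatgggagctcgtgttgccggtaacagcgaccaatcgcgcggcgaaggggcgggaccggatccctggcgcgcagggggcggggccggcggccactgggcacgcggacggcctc
Fasn: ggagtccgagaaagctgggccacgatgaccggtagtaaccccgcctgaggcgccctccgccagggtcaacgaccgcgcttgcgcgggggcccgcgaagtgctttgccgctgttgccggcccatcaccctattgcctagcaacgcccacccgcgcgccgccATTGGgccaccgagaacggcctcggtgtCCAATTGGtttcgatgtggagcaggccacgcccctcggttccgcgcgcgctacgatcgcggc

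Per3, a period gene of the clock's negative arm, had 5.96, 8.61 and 12.98 CPM (lowest, median and highest) in Cort_ATGLi, against 0.93, 5.10 and 8.90 CPM in Cort_CON. Of the Cort_CON libraries 10 lay below every Cort_ATGLi library, and p32 and p34 were the lowest at 0.98 and 0.93 CPM. The log2 fold change was 0.92 (SE 0.18, adjusted p = 0.0019), and 0.70 (adjusted p = 0.0023) without p32, p33 and p34. Per3 lies within the span of Camta1 on the same strand. Dbp, the D-box activator, had 6.37, 8.56 and 16.1 CPM in Cort_ATGLi, against 3.08, 4.94 and 8.30 CPM in Cort_CON. Here p32, p33 and p34 were within the range of the other Cort_CON libraries, and 11 Cort_CON libraries lay below every Cort_ATGLi library. For Dbp the log2 fold change was 0.81 (SE 0.17, adjusted p = 0.0074), and 0.75 (adjusted p = 0.0384) without the 3. Dbp overlaps Sphk2 on the other strand. Mean levels of both genes were below those of the vehicle mice, where Dbp averaged 60.1 ± 21.8 CPM in EtOH_ATGLi and 42.3 ± 12.9 CPM in EtOH_CON (SD, n = 10 each).

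Nr1d2, which encodes REV-ERB beta, averaged 92.7 ± 13.2 CPM in Cort_ATGLi and 71.8 ± 18.1 CPM in Cort_CON (log2 fold change 0.37, adjusted p = 0.0188), and was at 0.26 (adjusted p = 0.14) without p32, p33 and p34. Nfil3, the repressor at D-boxes, had 22.8, 42.9 and 56.4 CPM in Cort_ATGLi, against 42.6, 62.0 and 111 CPM in Cort_CON. On the log2 scale it fell by 0.68 (SE 0.13, adjusted p = 0.0013), and was at -0.47 (adjusted p = 0.0285) without the 3. Of the Cort_ATGLi libraries 7 lay below every Cort_CON library. Clock fell by 0.37 on the log2 scale (adjusted p = 0.0370) with all libraries, and was at -0.23 (adjusted p = 0.34) without the 3. Arntl, which encodes BMAL1, was at -0.75 (adjusted p = 0.0570). Per1 (0.03, adjusted p = 0.98), Per2 (0.50, adjusted p = 0.29) and Nr1d1 (0.30, adjusted p = 0.32) did not pass. The hour of collection is not in the labels, so its part in these values was not tested.

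**Figure D3:**
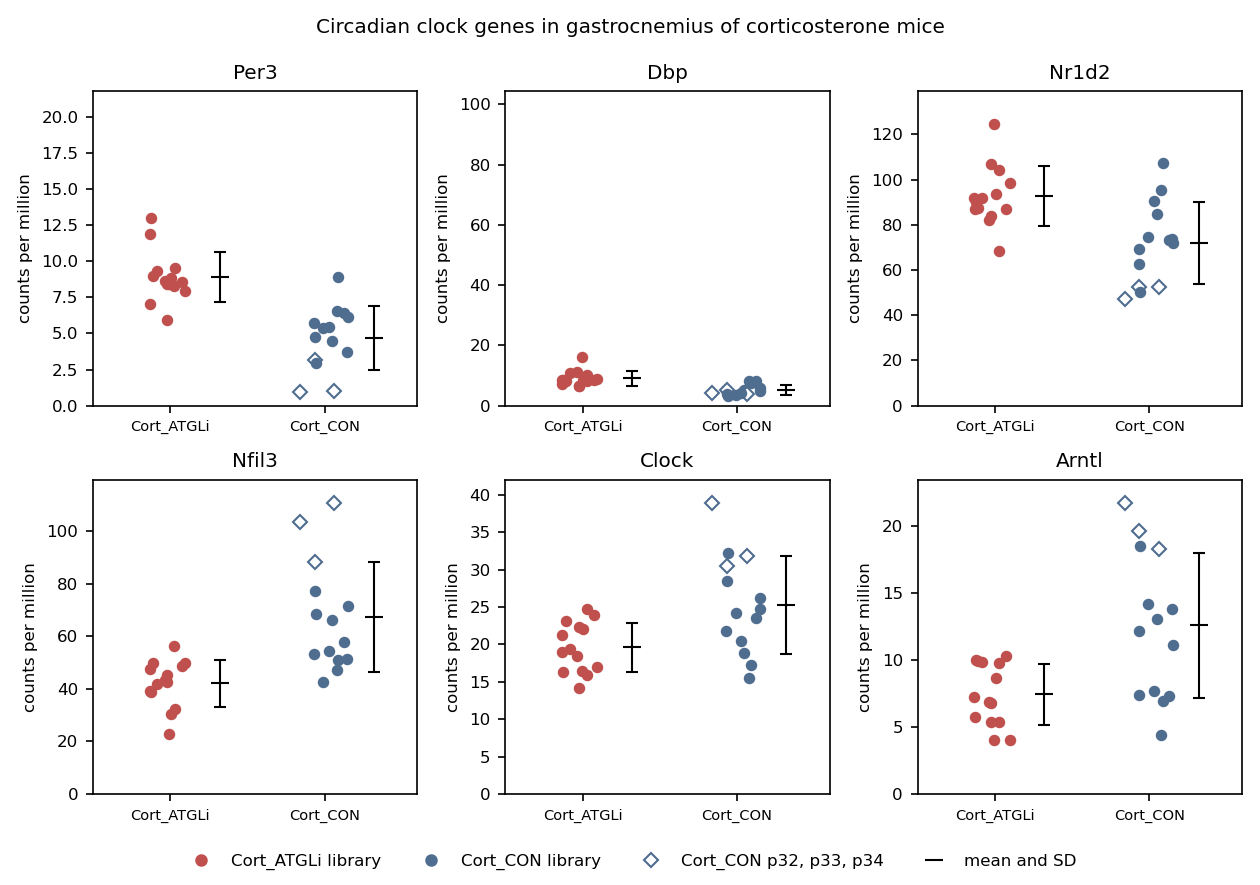
Level in CPM of 6 clock genes in each library of Cort_ATGLi (left in each panel) and Cort_CON (right). Open diamonds are Cort_CON p32, p33 and p34, and black marks are the mean and SD. Per3, Dbp and Nr1d2 are higher and Nfil3 and Clock lower in Cort_ATGLi, Arntl did not pass the test (adjusted p = 0.0570), and p32 and p34 are the lowest libraries for Per3.

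Genes of glycogen handling moved as well, 3 up and 1 down of 18 measured (22.2%, against 1.6% of all genes tested). DESeq2 called 5 and limma voom 4. Gyg, which encodes glycogenin, the protein primer of glycogen, had 235, 281 and 365 CPM in Cort_ATGLi, against 193, 221 and 271 CPM in Cort_CON. All 14 Cort_ATGLi libraries were above the Cort_CON median, and 9 Cort_CON libraries lay below every Cort_ATGLi library. The log2 fold change was 0.34 (SE 0.07, adjusted p = 0.0013), and 0.31 (adjusted p = 0.0130) without p32, p33 and p34. Gbe1, the branching enzyme, and Gaa, the lysosomal glucosidase that degrades glycogen, rose by 0.32 (adjusted p = 0.0312) and 0.33 (adjusted p = 0.0198). Without the 3 libraries they were at 0.29 (adjusted p = 0.11) and 0.33 (adjusted p = 0.0641).

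Ppp1r3c, which targets protein phosphatase to glycogen, had 1320, 2228 and 2952 CPM in Cort_ATGLi, against 2562, 3018 and 4100 CPM in Cort_CON. Here 12 Cort_ATGLi libraries lay below every Cort_CON library, and 8 Cort_CON libraries above every Cort_ATGLi library. It fell by 0.54 on the log2 scale (SE 0.11, adjusted p = 0.0026), and was at -0.44 (adjusted p = 0.0367) without the 3. Both groups were far above vehicle mice, at 492 ± 128 CPM in EtOH_ATGLi and 543 ± 104 CPM in EtOH_CON (SD, n = 10 each). Pygl, the liver form of glycogen phosphorylase and chosen after its values were seen, fell by 0.97 on the log2 scale (adjusted p = 0.0149), and was at -1.17 (adjusted p = 0.0012) without the 3.

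Few genes of insulin signalling passed. Of 32 measured, Igf1r, the IGF-1 receptor, and Akt1, the kinase downstream of it, rose (6.25% of the list, against 0.667% of all genes tested). Akt1 averaged 61.6 ± 8.95 CPM in Cort_ATGLi and 50.9 ± 4.94 CPM in Cort_CON (SD, n = 14 each), or 0.28 higher on the log2 scale (adjusted p = 0.0189, and 0.0310 without p32, p33 and p34). Fitted on the 28 Cort libraries alone, Akt1 was at 0.28 (adjusted p = 0.0493), and with log2 insulin added to that fit at 0.16 (adjusted p = 0.419). Igf1r was at 0.50 (adjusted p = 0.0417), and at 0.42 (adjusted p = 0.19) without the 3. Sh2b2, an adaptor that binds the insulin receptor, had medians of 3.47 CPM in Cort_ATGLi and 7.14 CPM in Cort_CON. Its log2 fold change was -1.22 (adjusted p = 0.0055), and -0.85 (adjusted p = 0.0832) without the 3.

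The only gene whose 28 libraries did not overlap at all was Mylk2, out of 12592 tested (0.00794% higher without overlap, 0% lower). It encodes the skeletal myosin light chain kinase, which phosphorylates myosin during contraction. Mylk2 had 702, 824 and 1181 CPM in Cort_ATGLi, against 386, 598 and 670 CPM in Cort_CON. Cort_CON p32, p33 and p34 were the lowest at 386, 429 and 419 CPM, and the other Cort_CON libraries ran from 562 to 670 CPM, still below all of Cort_ATGLi. The log2 fold change was 0.56 (SE 0.08, adjusted p = 5.5e-05), and 0.46 (adjusted p = 0.0012) without the 3. In vehicle mice Mylk2 averaged 433 ± 73.2 CPM in EtOH_ATGLi and 373 ± 43.4 CPM in EtOH_CON (SD, n = 10 each), below both corticosterone groups.

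**Figure D4:**
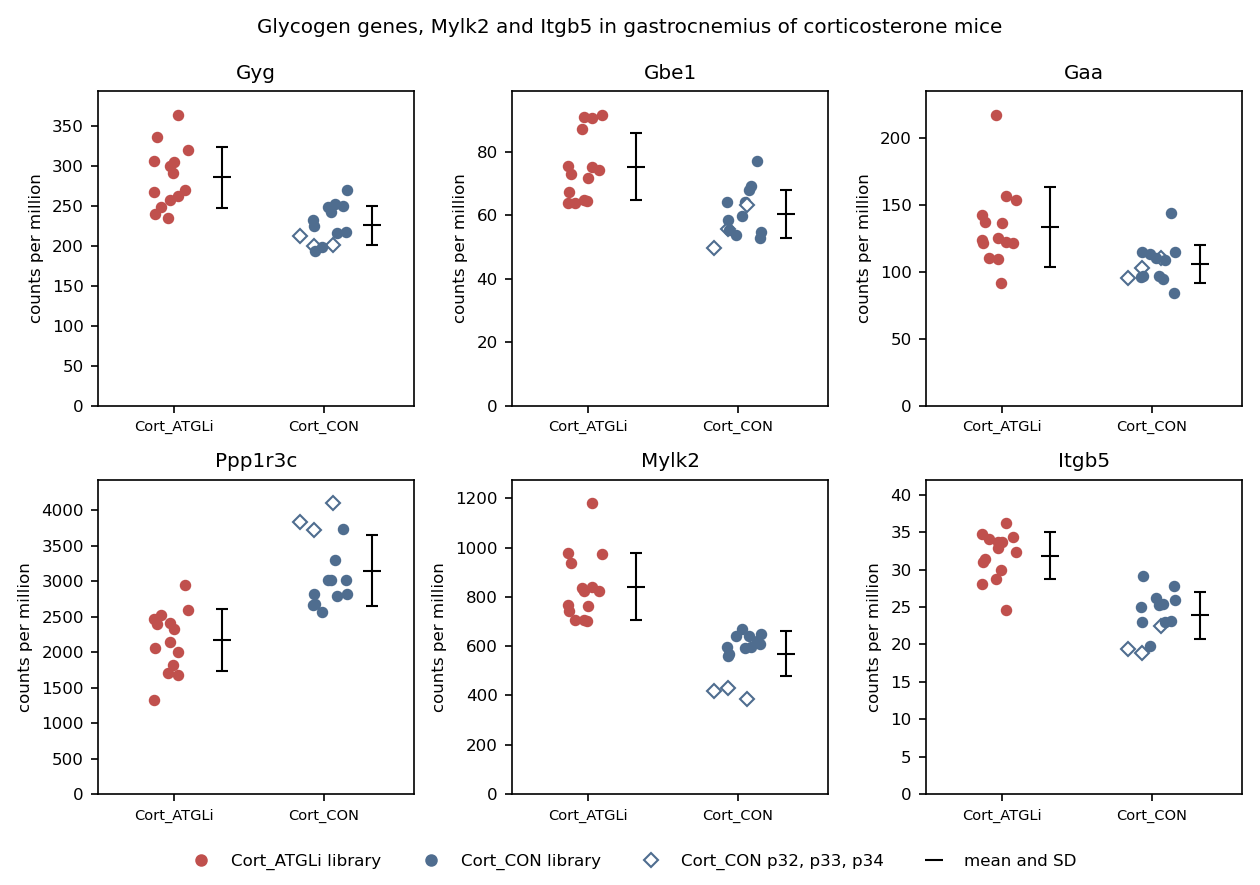
Level in CPM of 4 glycogen genes, Mylk2 and Itgb5 in each library of Cort_ATGLi (left in each panel) and Cort_CON (right). Open diamonds are Cort_CON p32, p33 and p34, and black marks are the mean and SD. The Mylk2 groups do not overlap (lowest Cort_ATGLi 702, highest Cort_CON 670), and Ppp1r3c is the one gene shown that is lower in Cort_ATGLi.

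Other genes with the largest rises included membrane and signalling proteins. Tmem100, a membrane protein of endothelium, had medians of 71.7 CPM in Cort_ATGLi and 36.4 CPM in Cort_CON, but the groups overlapped (log2 fold change 0.66, adjusted p = 0.0156). The sodium-calcium exchanger Slc8a3 (0.56, adjusted p = 0.0166), the zinc finger gene Zcchc24 (0.55, adjusted p = 5.5e-05), the BMP-binding membrane protein Crim1 (0.53, adjusted p = 0.0166) and the leucine-rich repeat gene Lrrc2 (0.49, adjusted p = 0.00037) rose. So did the calcineurin-dependent transcription factor Nfatc2 (0.49, adjusted p = 0.0495) and the early response gene Ier3 (0.49, adjusted p = 0.0139). Of these 7, Slc8a3, Zcchc24 and Lrrc2 passed without p32, p33 and p34, with log2 fold changes of 0.60, 0.48 and 0.47. Fitted on the 28 Cort libraries alone, Tmem100 (adjusted p = 0.0956), Slc8a3 (0.103) and Nfatc2 (0.131) did not pass. Itgb5, the integrin beta chain that pairs with integrin alpha V, averaged 31.9 ± 3.15 CPM in Cort_ATGLi and 23.9 ± 3.09 CPM in Cort_CON (log2 fold change 0.42, adjusted p = 0.00013, and 0.0019 without the 3).

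Cyp1a1, a cytochrome P450 induced through the aryl hydrocarbon receptor and chosen after its values were seen, had 1.25, 3.85 and 7.30 CPM in Cort_ATGLi, against 0.00, 1.12 and 2.89 CPM in Cort_CON. All Cort_ATGLi libraries exceeded the Cort_CON median, and 10 exceeded every Cort_CON library. The log2 fold change was 1.998 (SE 0.35, adjusted p = 0.00070), and 1.88 (adjusted p = 0.0059) without p32, p33 and p34. In vehicle mice it averaged 1.45 ± 1.29 CPM in EtOH_ATGLi and 0.54 ± 0.45 CPM in EtOH_CON, with a log2 fold change of 1.45 (adjusted p = 0.36). At these levels each value rests on few counts.

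The largest falls rested in part on the 3 Cort_CON libraries. Ighm, the immunoglobulin M heavy chain of B cells, had 1.01, 2.76 and 5.07 CPM in Cort_ATGLi, against 0.88, 8.51 and 43.4 CPM in Cort_CON, and p32, p33 and p34 were at 43.02, 40.03 and 43.4 CPM. Its log2 fold change was -2.34 (SE 0.42, adjusted p = 0.0011) with all libraries, and -1.22 (adjusted p = 0.0676) without the 3. Dupd1, a muscle phosphatase, had 1.79, 5.59 and 10.98 CPM in Cort_ATGLi, against 4.53, 13.9 and 57.6 CPM in Cort_CON. It was at -1.82 (adjusted p = 0.00027) with all libraries, and at -1.09 (adjusted p = 0.0065) without the 3, which were at 46.4, 52.8 and 57.6 CPM. Both genes were higher in vehicle mice, where Ighm averaged 29.1 ± 16.3 CPM in EtOH_ATGLi and 57.3 ± 29.2 CPM in EtOH_CON (SD, n = 10 each). Of the 9 lymphocyte markers only 2 were measured, Ighm among them, and they summed to 1.29 to 5.59 CPM in Cort_ATGLi and 2.39 to 43.4 CPM in Cort_CON. The highest sum was that of Ighm alone in Cort_CON p34, so the sum is not separate from the Ighm result. The other measured marker had a positive log2 fold change (0.37) and was not called.

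Prkcd, protein kinase C delta, had 6.60, 13.9 and 21.1 CPM in Cort_ATGLi, against 14.2, 24.9 and 41.5 CPM in Cort_CON. Here 8 libraries of each group lay outside the range of the other, and the log2 fold change was -1.005 (SE 0.17, adjusted p = 0.00031; -0.79 and adjusted p = 0.0065 without p32, p33 and p34). Mybph, myosin binding protein H, had medians of 67.3 CPM in Cort_ATGLi and 170 CPM in Cort_CON. Cort_ATGLi p41 was the exception at 244 CPM, above every Cort_CON library, while 11 Cort_ATGLi libraries lay below all of them (log2 fold change -1.005, adjusted p = 0.0023; -0.96 and adjusted p = 0.0130 without the 3). The potassium channel Kcnk1 (-1.15, adjusted p = 0.0222), the transcription factor Sox4 (-1.05, adjusted p = 0.0368), the small GTPase Rhob (-0.998, adjusted p = 0.04998) and the mitochondrial glutamate carrier Slc25a22 (-0.95, adjusted p = 0.0115) fell with all libraries. Without the 3 they were at -0.81, -0.19, -0.72 and -0.59, and none of these 4 passed. Sox4 was at 78.2, 50.6 and 21.7 CPM in p32, p33 and p34, against 6.25 to 16.5 CPM in the other Cort_CON libraries.

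Among channel genes, chosen after their values were seen, the inward rectifier Kcnj12 fell by 0.58 on the log2 scale (adjusted p = 0.00070) and the modulatory subunit Kcng4 by 0.80 (adjusted p = 0.0115). Both passed without p32, p33 and p34, at -0.43 and -0.87. Casq1, the calcium store protein of fast fibres, fell by 0.41 (adjusted p = 0.0100) and was at -0.34 (adjusted p = 0.0761) without the 3. It was the only call among 16 fast-fibre genes and 20 calcium handling genes. Of the fast-fibre genes, 5 were at an unadjusted p under 0.05, and 13 had a negative and 3 a positive log2 fold change (median -0.15). The 16 slow-fibre genes had no call by edgeR, DESeq2 or limma voom, and none was at an unadjusted p under 0.05. Of these, 13 had a positive and 3 a negative log2 fold change (median 0.12).

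Few glucocorticoid target genes passed between the diets. Of 29 measured, 1 fell (3.45%, against 0.929% of all genes tested), and 23 had a negative log2 fold change, with a median of -0.15. Cdkn1a, a cell cycle inhibitor, had 82.3, 178 and 344 CPM in Cort_ATGLi, against 113, 336 and 630 CPM in Cort_CON, where p32, p33 and p34 were at 604, 627 and 630 CPM. Its log2 fold change was -0.97 (SE 0.24, adjusted p = 0.0264), and -0.70 (adjusted p = 0.20) without the 3. Both groups were above vehicle mice, which averaged 31.3 ± 13.3 CPM in EtOH_ATGLi and 22.2 ± 6.02 CPM in EtOH_CON. Fkbp5, which binds HSP90 in receptor complexes and restrains the glucocorticoid receptor, averaged 273 ± 50.2 CPM in Cort_ATGLi and 332 ± 75.5 CPM in Cort_CON (log2 fold change -0.28, adjusted p = 0.32). Tsc22d3, or GILZ, was at -0.13 (SE 0.08, adjusted p = 0.53) and Glul, glutamine synthetase, at -0.36 (SE 0.14, adjusted p = 0.24).

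Of the atrophy genes, the ubiquitin ligases Fbxo32 (atrogin-1) and Trim63 (MuRF1) were at 0.26 (SE 0.15, adjusted p = 0.52) and -0.03 (SE 0.21, adjusted p = 0.98), and myostatin, Mstn, at 0.02 (SE 0.12, adjusted p = 0.98). Fbxo32 had medians of 799 CPM in Cort_ATGLi and 525 CPM in Cort_CON, with p45 of Cort_CON far above the rest at 1510 CPM. All 14 Cort_ATGLi libraries were above the Cort_CON median, and 8 Cort_CON libraries lay below every Cort_ATGLi library. Leaving out single libraries put the Fbxo32 log2 fold change between 0.21 and 0.42, with adjusted p from 0.076 to 0.64. Of 27 measured atrophy and FoxO genes, Fbxo31 rose (0.25, adjusted p = 0.0449) and Cdkn1a fell (7.41%, against 1.6% of all genes tested). Fbxo31 was at 0.19 (adjusted p = 0.20) without p32, p33 and p34. No proteasome gene of 33 was called by edgeR, DESeq2 or limma voom, with 10 at an unadjusted p under 0.05 and 29 with a positive log2 fold change, while scaling by library totals called 5.

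Of the 42 lists examined, 29 had no call by edgeR. Of these 29, DESeq2 called a gene in 5 and limma voom in 3. Respiratory chain genes (56 measured, 49 with a negative log2 fold change, median -0.07), collagen and matrix genes (30 measured, median -0.11) and cytosolic ribosomal proteins (74 measured, median 0.04) had no call by edgeR, DESeq2 or limma voom, with 1, 4 and 2 genes at an unadjusted p under 0.05. Gstm1, a glutathione transferase, was the call among 24 oxidative stress genes (0.23, adjusted p = 0.0288), Ifi27 that among 25 interferon genes (-0.28, adjusted p = 0.0439), and Thbs4, a matrix protein of tendon and muscle, that among 10 tendon genes (-0.60, adjusted p = 0.0246). None of the 3 passed without Cort_CON p32, p33 and p34. Tendon markers summed to 91.2 to 170 CPM in Cort_ATGLi and 94.1 to 256 CPM in Cort_CON, and their part in the Thbs4 value was not tested.

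The next genes, of translation and coenzyme A synthesis, were picked with their values in view. Mars, methionyl-tRNA synthetase, averaged 49.2 ± 5.01 CPM in Cort_ATGLi and 39.9 ± 4.70 CPM in Cort_CON (SD, n = 14 each), or 0.30 higher on the log2 scale (adjusted p = 0.0018, and 0.0034 without p32, p33 and p34). It overlaps Ddit3 on the other strand. The elongation factor Eef2 (0.26, adjusted p = 0.0246), the initiation factor Eif1 (0.22, adjusted p = 0.0246) and the nascent chain protein Naca (0.34, adjusted p = 0.0246) rose, and Aimp2, a scaffold of the tRNA synthetase complex, fell (-0.38, adjusted p = 0.0192). Of these 4, Naca passed without the 3, at 0.38. The pantothenate kinases Pank1 and Pank3, which start coenzyme A synthesis, fell by 0.52 (adjusted p = 0.0200) and 0.30 (adjusted p = 0.0291), and neither passed without the 3.

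Of the 63 called genes examined singly, 27 passed and 36 did not when the 28 Cort libraries were fitted alone. Besides those already given, Nr1d2, Clock, Gaa, Igf1r, Sh2b2, Kcnk1, Sox4, Rhob, Cdkn1a, Casq1, Kcng4, Pygl, Fbxo31, Gstm1, Ifi27, Thbs4, Eef2, Eif1, Naca, Aimp2, Pank3, Lonrf1 and Met did not pass there. Several calls also depended on single libraries. Nfatc2, Rhob, Igf1r, Ifi27, Fbxo31, Clock, Met and Sox4 lost their call when any of 11 to 20 of the 28 libraries was left out. Cdkn1a lost it without Cort_ATGLi p23 or any of Cort_CON p32, p33 and p34, Gstm1 without Cort_ATGLi p23 or Cort_CON p28, p32 or p33, Kcnk1 without Cort_CON p32, Lonrf1 without Cort_ATGLi p48, and Tmem52 without Cort_ATGLi p23, p40 or p48. Gbe1 lost it without any of Cort_ATGLi p17, p18 and p47 and Cort_CON p28, p33, p34 and p49. Naca lost it without Cort_ATGLi p23 or Cort_CON p28, and Pank3 without any of Cort_ATGLi p18, p24, p25, p42 and p48 and Cort_CON p35. Sox4 moved by more than 1.5 times without Cort_CON p32. Scd1, Fasn, Elovl6, Slc25a1, Agpat2, Per3, Dbp, Nr1d2, Nfil3, Gyg, Gaa, Ppp1r3c, Akt1, Mylk2, Itgb5, Prkcd, Mybph, Ighm, Dupd1, Sh2b2, Casq1 and Cyp1a1 kept theirs whichever single library was left out. Of these, limma voom did not call Elovl6 (adjusted p = 0.0983), Slc25a1 (adjusted p = 0.0799) and Ighm (adjusted p = 0.0751). Thrsp, Acly and Pygl were also not called by limma voom, which called 50 of the 63.

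Cort_CON was also split by disease state. Against the 5 nondiabetic libraries 122 genes passed (0.969%), 38 higher (0.302%) and 84 lower (0.667%), and against the 9 diabetic libraries 34 passed (0.27%), 10 higher (0.0794%) and 24 lower (0.191%). Of the 201 genes, 83 passed against the nondiabetic part, 33 against the diabetic part and 23 against both. These comparisons share the Cort_ATGLi libraries, and the 201 genes were called on the same Cort_CON libraries as 1 group. Against the nondiabetic libraries Scd1 was at -2.23 (adjusted p = 0.0038) and Mylk2 at 0.69 (adjusted p = 0.00038), and against the diabetic libraries at -1.74 (adjusted p = 0.0272) and 0.50 (adjusted p = 0.0135). Nfil3, Ppp1r3c, Itgb5 and Cyp1a1 also passed against both, at -0.82, -0.55, 0.55 and 2.66 against the nondiabetic libraries and -0.59, -0.53, 0.35 and 1.75 against the diabetic ones. Other genes did not: Fasn, Slc25a1, Thrsp, Acly, Clock, Gbe1, Gaa and Akt1 passed against neither part. Elovl6, Per3, Dbp, Nr1d2 and Gyg passed against the nondiabetic part only. Of the 21 fatty acid synthesis genes, 2 fell against the nondiabetic part and 1 against the diabetic part. Of the 63 called genes examined singly, 30 passed against the nondiabetic part and 17 against the diabetic part. The nondiabetic part holds p32 and p33, and the diabetic part holds p34. Without p32, p33 and p34, 21 genes passed against the other 3 nondiabetic libraries and 23 against the remaining diabetic ones. Between the diabetic and the nondiabetic Cort_CON libraries, edgeR called 0 of 12592 genes. The counts of 122 and 34 were therefore not read as a difference by disease state.

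Without corticosterone, atglistatin was followed by few called genes. Of 12592 genes, 3 (0.0238%) passed between EtOH_ATGLi and EtOH_CON, 2 higher (0.0159%) and 1 lower (0.00794%). Fkbp5 (0.78, adjusted p = 0.0219) and Mepce, a methylase that caps 7SK RNA (0.41, adjusted p = 0.0219), rose, and Sparc, a collagen-binding matrix protein, fell (-0.65, adjusted p = 0.00033). None of the 3 passed in corticosterone mice. By other tools the count differed, with 38 by DESeq2 and 28 by limma voom, and 839 genes were at an unadjusted p under 0.05. The 201 genes of the corticosterone comparison had a median absolute log2 fold change of 0.46 there and of 0.16 in vehicle mice. They were picked for passing under corticosterone, which raises the first median. The 2 medians therefore do not compare the sizes of the diet effects. In vehicle mice 156 of the 201 genes had the same sign, 42 of these at an unadjusted p under 0.05. Per3 was at 0.69 (adjusted p = 0.19), Dbp at 0.51 (adjusted p = 0.50), Scd1 at -0.43 (adjusted p = 0.91), Fasn at -0.40 (adjusted p = 0.90) and Mylk2 at 0.22 (adjusted p = 0.69) in vehicle mice. Each diet group held 14 libraries with corticosterone and 10 with vehicle, so the comparisons differ in precision.

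The difference between the diet effects was tested directly as an interaction, which 5 genes passed (0.0397%), 3 more positive (0.0238%) and 2 more negative (0.0159%) under corticosterone. Itgb5 (0.50, adjusted p = 0.0176), the RING finger gene Lonrf1 (0.84, adjusted p = 0.0176) and Sparc (0.70, adjusted p = 0.0121) had a more positive diet effect under corticosterone, and Fkbp5 (-1.07, adjusted p = 0.0121) and the membrane protein gene Tmem52 (-0.57, adjusted p = 0.0427) a more negative one. Sparc averaged 237 ± 25.2 CPM in Cort_ATGLi and 229 ± 39.4 CPM in Cort_CON, and 225 ± 35.7 CPM in EtOH_ATGLi and 354 ± 63.7 CPM in EtOH_CON. Without Cort_CON p32, p33 and p34, no gene passed by edgeR (658 at an unadjusted p under 0.05), and Fkbp5, Sparc, Lonrf1, Itgb5 and Tmem52 all had an adjusted p of 0.0555. Of the 201 genes, 97 had an interaction at an unadjusted p under 0.05 in edgeR, as had 695 of all 12592 genes tested. The 201 were picked on the corticosterone comparison, which is part of the interaction. That choice raises their number, so the 97 were not read as a result. For Scd1 (-1.50, adjusted p = 0.70), Per3 (0.23, adjusted p = 0.999) and Mylk2 (0.34, adjusted p = 0.70) a difference between the water treatments was not shown.

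**Figure D5:**
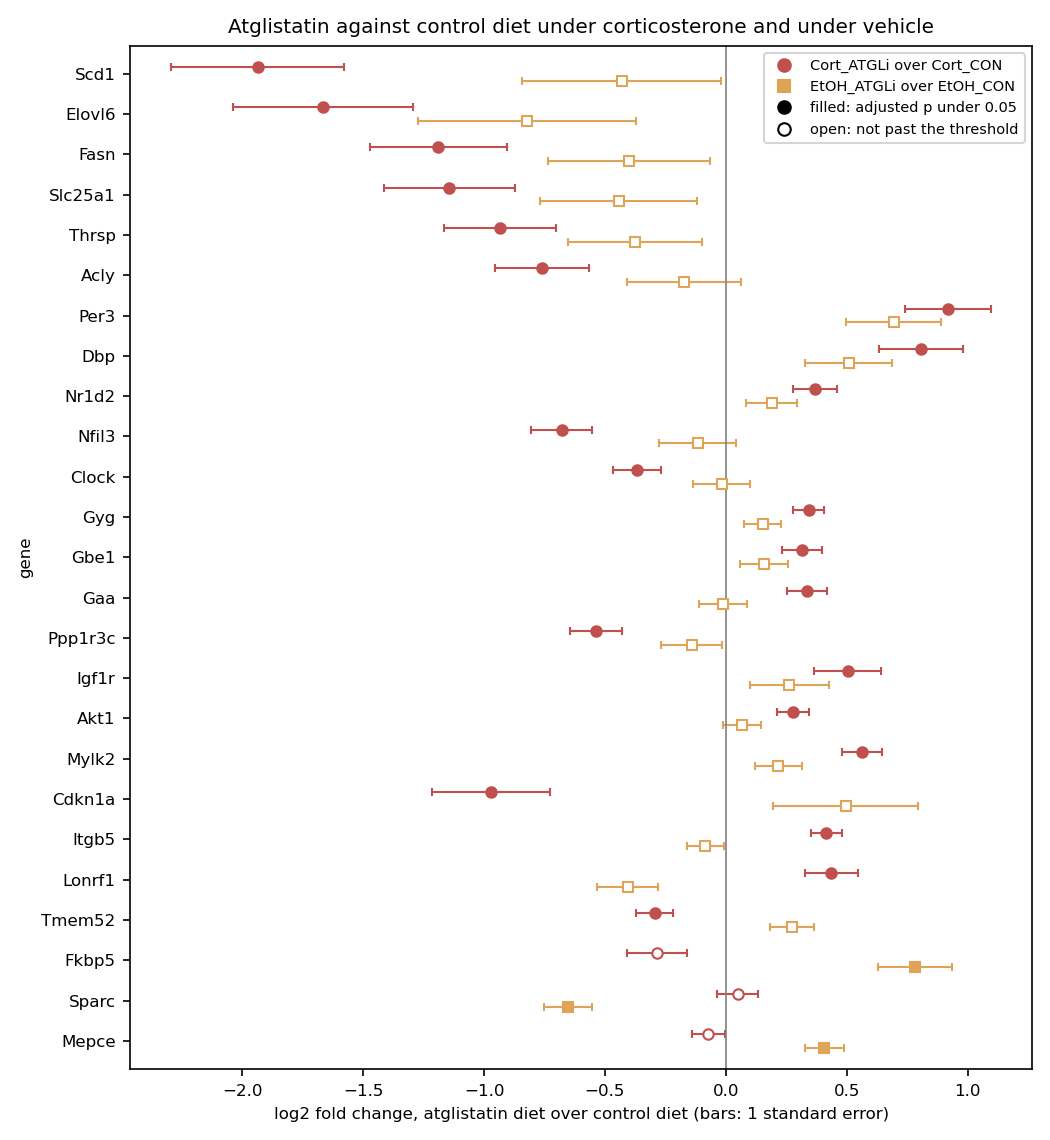
Log2 fold change of atglistatin over control diet for 25 genes, with 1 standard error, under corticosterone (circles, Cort_ATGLi over Cort_CON, n = 14 each) and under vehicle (squares, EtOH_ATGLi over EtOH_CON, n = 10 each). Filled marks passed an adjusted p of 0.05. The corticosterone marks of the first 22 genes are filled, and of the vehicle marks only Fkbp5, Sparc and Mepce are.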

How the data were processed

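The deposited table holds raw counts of 3′ end reads per gene (QuantSeq libraries, 50 bp forward reads, per the labels' protocols) made by the authors on GRCm38, with R 3.6.1 and DESeq2 1.24.0 named in the submitters' processing notes. Aligner, counter and strand setting: not given in the sources used here, so overlapping genes cannot be told apart. All counts are even numbers in 47 of the 48 libraries, among them the 28 corticosterone libraries. The exception was EtOH_ATGLi p13, with 49.6% odd counts and the largest total, 24034481. Halving the counts of all 48 libraries, p13 included, before the test gave 201 calls, of which 195 were among the 201 of the main test. Nfatc2 lost its call there. The labels name no batch and no molecular identifiers. No 2 of 182 library pairs within a group agreed within sampling noise (lowest chi-square per degree of freedom 3.94).

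Genes were kept by filterByExpr (minimum count 10, minimum total 15; 12592 kept of 14125), scaled by TMM, and tested with edgeR 4.0.16 (quasi-likelihood, robust, all 48 libraries in 1 fit of 4 groups, two-sided, Benjamini-Hochberg, threshold 0.05) in R 4.3.3. Alternatives used DESeq2 1.42.0 and limma 3.58.1. Glucose and insulin were compared by permutation of the label values. The fit was checked on simulated data. Of 14125 gene IDs, 14094 matched GENCODE mouse release M21. At the shallowest depth, 1 CPM is about 10 counts.

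The genes named by rule are the 12 largest rises and 12 largest falls among called genes averaging 5 CPM or more, 10 set genes, up to 4 called genes with the smallest p in each list, and the largest called changes of the vehicle and interaction tests. Genes outside this rule, Acly, Thrsp, Clock and the translation, channel, Pank, Pygl, Cyp1a1 and Met genes among them, as well as uncalled genes given for context, were chosen after their values were seen. The members and lists were chosen with earlier results of these data known. Promoter coordinates and sequences are RefSeq's on GRCm38.p6, and gene overlaps are from the GENCODE release.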

Additional observations from a re-analysis of the deposited data

Results flagged for a closer look

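The diet effect differed between the water treatments, by the interaction test, in 5 genes: Fkbp5 (-1.07, adjusted p = 0.0121), Sparc (0.70, adjusted p = 0.0121), Lonrf1 (0.84, adjusted p = 0.0176), Itgb5 (0.50, adjusted p = 0.0176) and Tmem52 (-0.57, adjusted p = 0.0427), as log2 differences of the corticosterone effect minus the vehicle effect in edgeR. None of the 5 passed without Cort_CON p32, p33 and p34 (adjusted p = 0.0555 for each).

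Single samples lay far from the rest of a group of 5 to 10 in 7 of the 64 groups of values examined; chance alone flags about 1 in 20. In EtOH_CON, p01 was far from the other 9 libraries in Igf1r (2.68 log2 CPM, against 3.58 to 4.14), Akt1 (6.29, against 5.60 to 5.96) and Sparc (7.82, against 8.27 to 8.78). In EtOH_ATGLi, p08 was high in Mylk2 (9.27 log2 CPM, against 8.52 to 8.84). Among nondiabetic Cort_CON mice, p36 had a fed glucose of 242, against 131 to 145 in the other 4. Among diabetic Cort_CON mice, p35 had a fed glucose of 407, against 254 to 315, and p34 an insulin of 16.8, against 29.3 to 39.8.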

How the results depend on the processing

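The count of 201 genes became 71 in the fit of the 28 corticosterone libraries alone, 105 with log2 insulin as a covariate in that fit, 80 with the fat-cell markers as a covariate in that fit, and 100 without Cort_CON p32, p33 and p34. It was 164 when Cort_ATGLi p41 was left out as well, 269 with DESeq2, 180 with limma voom, 198 with DESeq2's size factors in edgeR, 294 with library totals (226 higher, 68 lower), 188 with no filter, 202 with a filter of 1 CPM in 14 libraries and 201 with halved counts. Leaving out each of the 28 libraries in turn gave 125 (without Cort_ATGLi p23) to 356 genes (without Cort_CON p45). The vehicle count of 3 became 38 with DESeq2, 28 with limma voom, 1 with library totals and 20 with halved counts. The halving took in EtOH_ATGLi p13, the library whose counts are not all even. The interaction count of 5 became 18 with DESeq2, 3 with library totals and 0 without p32, p33 and p34. Against nondiabetic Cort_CON, 122 became 189 with DESeq2 and 21 without p32, p33 and p34. Against diabetic Cort_CON, 34 became 112 with DESeq2 and 23 without p32, p33 and p34, and 78 genes passed without Cort_ATGLi p41. The insulin difference did not pass against nondiabetic mice alone (-7.95, exact permutation test, p = 0.22). The cause was not tested for any of these. None of the 63 called genes with individual values changed sign in any of these alternatives. No paired analysis was possible because Cort_ATGLi and Cort_CON share no replicate number. Genes under about 1 CPM rest on few counts and their changes may be missed at this depth.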
